A study of Mus musculus with 28 samples.

Results

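The Hox cluster genes encode homeodomain transcription factors that lie in 4 clusters, Hoxa on mouse chromosome 6, Hoxb on chromosome 11, Hoxc on chromosome 15 and Hoxd on chromosome 2. Their numbers 1 to 13 are paralog groups, and the genes run along each cluster in the order in which they act along the body axis, from low numbers at the head end to high numbers at the tail end and the tips of the limbs. A gene was taken as a member where the array annotation tied a probe set to a single symbol made of Hoxa, Hoxb, Hoxc or Hoxd and a number. This gave 48 probe sets of 33 genes, out of 39 Hox genes of the mouse and out of 18193 genes in the table. Cluster A had 9 of its 11 genes, cluster B 9 of 10, cluster C 7 of 9 and cluster D 8 of 9. The other 6 were not analysed here. For the 11 members with several probe sets the one with the largest SD over the 28 arrays was used, and the other probe sets of a named member are given beside its value for the lines or for time at 25 mM.

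HOX proteins bind DNA together with cofactors of the PBX and MEIS families, and set the identity of a segment by the combination that is present. Polycomb proteins hold silent clusters in a repressed state, while trithorax proteins keep active ones on, and retinoic acid activates low-number genes first in embryos. Fibroblasts of adult skin and other organs keep a combination of active Hox genes that reflects the place they came from, so the set of Hox transcripts serves as a record of position in such cells.

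The study measured mRNA in the line NIH3T3 K-ras, called K-ras here, and in NIH3T3, fibroblasts immortalised from mouse embryos, to find genes that respond to glucose supply. RNA was taken from K-ras cells and from NIH3T3 cells 24, 48 and 72 h after a change to medium with 1 mM or 25 mM glucose, and at 0 h, the time of the change, for which the labels give 25 mM. Each of the 14 groups had 2 arrays, labelled as biological replicates, which made 14 arrays per line. All cultures had 4 mM glutamine and newborn calf serum, and were kept 18 h in normal growth medium before the change. The study holds 1 line with K-ras and 1 without, and no independent transformants, so what differs between them need not come from K-ras. Values are log2 ratios to the gene's own median over the 28 arrays: a log2 ratio of 1 is a doubling over that median. Levels of different genes cannot be compared on this scale, signal over background is unknown, and the number of arrays limits the precision. In RNA of whole cultures, fewer cells that express a gene and less RNA per cell cannot be told apart.

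The profiles of 6 arrays went against their labels, and these are called doubtful or out of place here. Grouped by the 500 genes of largest SD, with the Hox genes left out, the arrays fell into 2 profiles, and 11 of the 14 arrays of each line lay with their own line. Of the K-ras arrays, replicate 1 at 0 h (25 mM) and replicate 1 at 48 and at 72 h (1 mM) had the profile of NIH3T3. Of the NIH3T3 arrays, both at 24 h and replicate 1 at 48 h (all 1 mM) had that of K-ras. The epithelial keratin gene Krt14 had log2 ratios from 1.75 to 2.22 on these 3 K-ras arrays, against -4.58 to -3.9 on the 11 other K-ras arrays. Every label was kept in the fits, and counts of called genes are also given without the 6 arrays where that fit could be made. Where it leaves a single array in a group, limma takes that group's spread from the other groups. Leaving out arrays because they resemble the other line makes a difference between the lines larger by construction. The level of bioC, a spiked-in hybridisation control, ran from -0.256 to 2.98 on K-ras arrays at 25 mM and from -2.34 to -0.835 on NIH3T3 arrays at 25 mM, so at 25 mM line and bioC level cannot be told apart. Replicate 1 of K-ras 25 mM 72 h had the highest bioC value, 2.98, and the widest spread over all probe sets, an interquartile range of 0.654. Of 9 measured fibroblast markers, 1 was higher in K-ras arrays at 25 mM and 0 were lower, namely Pdgfra (log2 fold change 1.57 ± 0.40, SE), and without the 6 arrays 3 were higher (Dcn, Pdgfra and Thy1) and 1 lower (Col1a1). These counts stand beside 11.3% of all genes called between the lines, and 17.9% without the 6 arrays. Since levels were removed, no marker could be called present or absent.

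The members varied unequally over the arrays. The SD over the 28 arrays was above the median of all genes, 0.324, for 15 of the 33, and above their 90th percentile, 0.765, for Hoxa3 (1.38), Hoxa2 (1.14), Hoxb6 (0.901), Hoxb9 (0.896) and Hoxa4 (0.780). All 15 were among the 23 members of paralog groups 1 to 9. The 10 members of groups 10 to 13, which pattern the lower trunk, the urogenital tract and the ends of the limbs, had SDs of 0.141 to 0.291, and 0 of them were above the median of all genes. By cluster the median SD was 0.391 in A, 0.300 in B, 0.238 in C and 0.225 in D. A small SD shows only that these probe sets changed little, whether the gene was silent or steadily expressed.

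**Figure D1:**
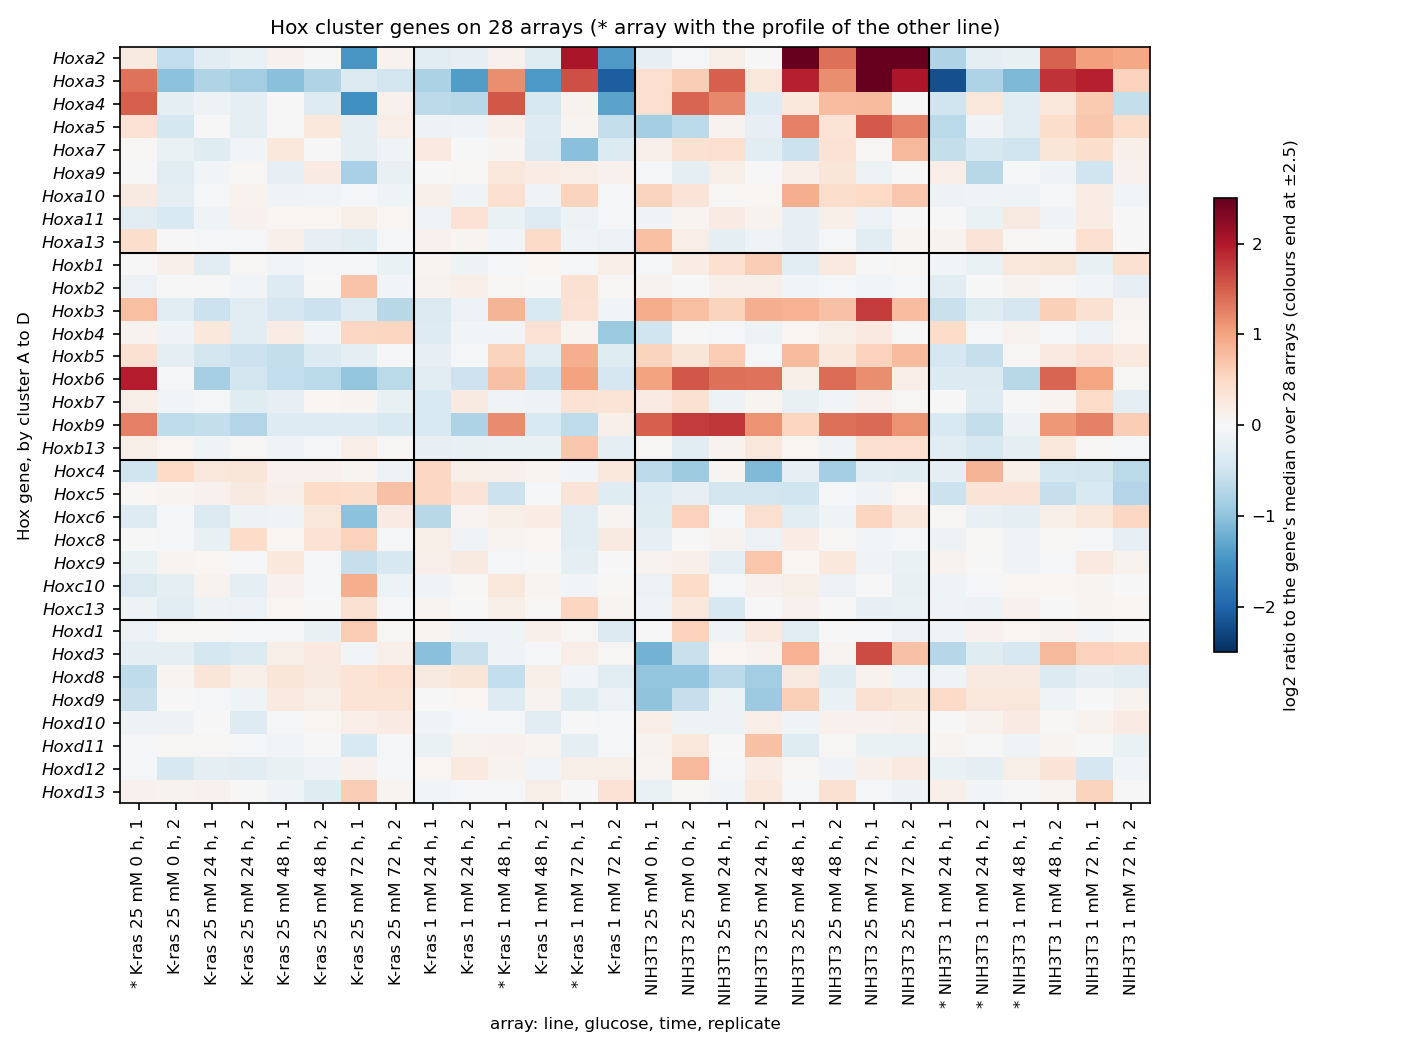
Log2 ratio to the gene's median (colour, ending at ±2.5) of the 33 Hox genes in rows, in cluster and number order, on the 28 arrays in columns, K-ras left of NIH3T3. An asterisk marks the 6 arrays with the profile of the other line, which stand out in Hoxa3 and Hoxb3 and, apart from K-ras 1 mM 72 h replicate 1, in Hoxb9, while rows of groups 10 to 13 are pale.

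Averaged over 0, 24, 48 and 72 h at 25 mM, K-ras arrays had lower mRNA of several genes of clusters A and B than NIH3T3 arrays. They had slightly higher mRNA of Hoxc4, Hoxc5 and Hoxd8. limma, with Benjamini-Hochberg adjustment over all genes and an adjusted p under 0.05, called 10 of the 33 members, against 11.3% of all genes. Of these, 3 were higher in K-ras arrays, 9.09% of the members against 5.67% of all genes, and 7 were lower, 21.2% against 5.67%. The median log2 fold change was -0.13 over the members and -0.04 over all genes. The fold change was positive for 0 of 9 members of cluster A, 1 of 9 of cluster B, 4 of 7 of cluster C and 4 of 8 of cluster D. The calls came to 3 lower in cluster A, 4 lower in cluster B, 2 higher in cluster C and 1 higher in cluster D. These counts by cluster are a description and were not tested against each other. The count depended on single arrays: with 1 array left out at a time, 4 to 10 members were called, 4 without replicate 2 of K-ras 25 mM 0 h, 5 without replicate 2 of NIH3T3 25 mM 0 h or of K-ras 25 mM 48 h, and 6 without either NIH3T3 25 mM 72 h array or replicate 1 of K-ras 25 mM 24 h. Hoxb3, Hoxb5, Hoxb9 and Hoxd8 were called in 16 of these 16 fits. With bioC level as a block, added after the data were seen, 0 members and 0 of all genes were called. All K-ras arrays at 25 mM lie above its cut of -0.6 and all NIH3T3 arrays at 25 mM below it. Only NIH3T3 1 mM 48 h (0.325 and -1.24) and 72 h (0.278 and -1.1) have arrays on both sides. The array at 0.325 has the profile of K-ras. This fit therefore cannot separate line from bioC level, and no conclusion is drawn from it.

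Hoxb9, which acts with its paralogs in the thoracic skeleton, had log2 ratios from -0.73 to 1.25 on the 8 K-ras arrays at 25 mM (median -0.36), against 0.54 to 1.78 on the 8 NIH3T3 arrays at 25 mM (median 1.40). The single K-ras array within the NIH3T3 range was replicate 1 at 0 h, at 1.25, and the other 7 lay below every NIH3T3 array. The log2 fold change was -1.58 ± 0.28 (adjusted p = 0.00465), and -1.82 ± 0.16 without the 6 arrays. Hoxb3, a gene of hindbrain and neck, ran from -0.69 to 0.75 on K-ras arrays (median -0.37), against 0.55 to 1.75 on NIH3T3 arrays (median 0.82). Its log2 fold change was -1.20 ± 0.21 (adjusted p = 0.00465), and its other probe set gave -0.68. Here too the highest K-ras value, 0.75, was that of replicate 1 at 0 h.

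Hoxb6, a gene of the thoracic trunk, ran from -0.99 to 1.97 on K-ras arrays (median -0.64), against 0.14 to 1.55 on NIH3T3 arrays (median 1.26). The K-ras array at 1.97 was again replicate 1 at 0 h, and it lay above every NIH3T3 array at 25 mM. The log2 fold change of Hoxb6 was -1.31 ± 0.35 (adjusted p = 0.0241), and the call held in 10 of 16 fits with 1 array left out. Hoxb5, known for its part in shoulder position, ran from -0.59 to 0.39 on K-ras arrays (median -0.28), against -0.05 to 0.79 on NIH3T3 arrays (median 0.56). Its log2 fold change was -0.73 ± 0.17 (adjusted p = 0.0125). Hoxb4 and Hoxb7 lie between these genes, with log2 fold changes of 0.17 and -0.12 that did not pass the test. The other probe set of Hoxb4 gave -0.23. A probe set shared between Hoxb8 and Hoxb7 gave -0.315 (adjusted p = 0.227, limma fit of all probe sets). Hoxb8 had no probe set of its own, and signal over background is unknown. Whether the members of cluster B that differed form an unbroken run therefore cannot be told.

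In cluster A, Hoxa3, needed for the thymus and parathyroid, ran from -1.04 to 1.35 on K-ras arrays (median -0.75), against 0.29 to 2.65 on NIH3T3 arrays (median 1.33). It had the largest log2 fold change of the members, -1.82 ± 0.56 (adjusted p = 0.0433), but also the largest spread, and the call held in 1 of 16 fits with 1 array left out. Its other 3 probe sets gave -0.93, -0.22 and -0.09. Hoxa2, which gives the second pharyngeal arch its identity, ran from -1.46 to 0.23 on K-ras arrays (median -0.09), against -0.21 to 2.95 on NIH3T3 arrays (median 0.76). These ranges overlapped: the NIH3T3 arrays at 0 and 24 h lay between -0.21 and 0.15, and those at 48 and 72 h between 1.37 and 2.95. The log2 fold change of Hoxa2 was -1.44 ± 0.39 (adjusted p = 0.0238), held in 10 of 16 fits. Hoxa10, known for its role in the uterus, was the single called member of groups 10 to 13. It ran from -0.22 to 0.23 on K-ras arrays (median -0.05), against 0.02 to 0.91 on NIH3T3 arrays (median 0.46), a log2 fold change of -0.46 ± 0.11 (adjusted p = 0.0142), while its other probe set gave -0.12.

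The 3 members that were higher in K-ras arrays had log2 fold changes from 0.52 to 0.62. Hoxc4 and Hoxc5, which act in the neck and upper trunk, are neighbours in cluster C. Hoxc4 ran from -0.50 to 0.50 on K-ras arrays (median 0.11), against -1.10 to 0.06 on NIH3T3 arrays (median -0.48), a log2 fold change of 0.62 ± 0.19 (adjusted p = 0.0472). Hoxc5 ran from 0.03 to 0.73 on K-ras arrays (median 0.17), against -0.49 to 0.04 on NIH3T3 arrays (median -0.27), a log2 fold change of 0.52 ± 0.16 (adjusted p = 0.0382). These calls held in 4 and 3 of 16 fits, and the other probe sets of Hoxc5 gave 0.09 and -0.08. Hoxd8, a gene of the trunk, ran from -0.63 to 0.42 on K-ras arrays (median 0.27), against -0.99 to 0.22 on NIH3T3 arrays (median -0.48). Its log2 fold change was 0.60 ± 0.13 (adjusted p = 0.00885), and its other probe set gave 0.67. Elsewhere in cluster D, 1 probe set shared between Hoxd4 and Hoxd3 was lower in K-ras arrays. It stood at -0.57 ± 0.15 (adjusted p = 0.0234, limma fit of all probe sets), and the other shared probe set gave 0.03. On NIH3T3 arrays at 25 mM Hoxd8 lay between -0.99 and -0.65 at 0 and 24 h, and between -0.30 and 0.22 at 48 and 72 h.

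**Figure D2:**
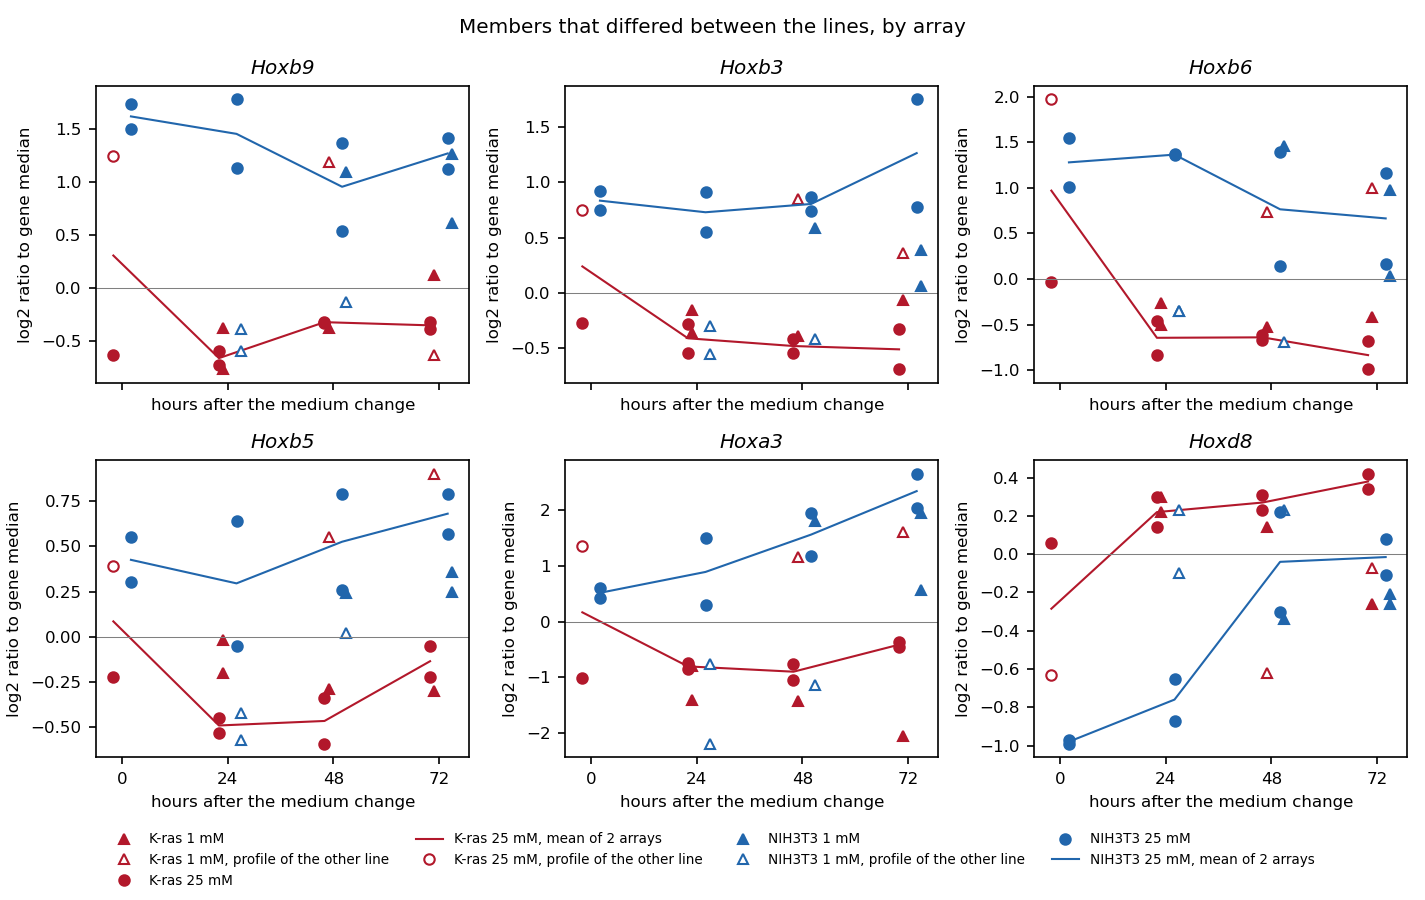
Log2 ratio of 6 members on each array against hours after the medium change, K-ras in red drawn left of NIH3T3 in blue, triangles for 1 mM and circles for 25 mM, with lines through the 25 mM means of 2 arrays. Open symbols are the arrays with the profile of the other line: in Hoxa3 and Hoxb3 each lies with the line it resembles, and in Hoxb9 all but the K-ras 1 mM 72 h array at -0.64 do.

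No member separated the 8 K-ras arrays at 25 mM from the 8 NIH3T3 arrays, against 0.605% of all genes whose arrays did not overlap. Without replicate 1 of K-ras 25 mM 0 h, 7 arrays against 8 did not overlap in 6 members, Hoxc5 on the high side and Hoxa3, Hoxb3, Hoxb5, Hoxb6 and Hoxb9 on the low side, against 6.22% of all genes, 3.11% on each side. Without the 6 arrays limma called 11 members, against 17.9% of all genes: 3 were higher (8.62% of all genes) and 8 were lower (9.23%). Hoxa5 joined the 10 at -0.46 ± 0.15 (adjusted p = 0.0457). Among the 10, Hoxa3 then stood at -2.11, Hoxb6 at -1.56, Hoxa2 at -1.54, Hoxb3 at -1.33, Hoxb5 at -0.81 and Hoxa10 at -0.51, and Hoxc4, Hoxd8 and Hoxc5 at 0.75, 0.68 and 0.53.

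The doubtful arrays followed their profile, not their label, in most of these genes. Hoxa3 was at 1.16 to 1.61 on the 3 out-of-place K-ras arrays, against -2.19 to -0.77 on the 3 out-of-place NIH3T3 arrays. Hoxb3 was at 0.36 to 0.85 on those K-ras arrays, against -0.55 to -0.30 on those NIH3T3 arrays. Hoxb9 was at 1.25 on K-ras 25 mM 0 h replicate 1, at 1.19 on K-ras 1 mM 48 h replicate 1 and at -0.64 on K-ras 1 mM 72 h replicate 1, against -0.60 to -0.13 on the out-of-place NIH3T3 arrays. The last of the 3 K-ras arrays therefore carried an NIH3T3-like Hoxa3 value, 1.61, beside a K-ras-like Hoxb9 value. The bioC value was 0.410, 0.316 and 0.164 on these K-ras arrays in the same order, against -1.75 and -2.32 on the NIH3T3 1 mM 24 h arrays and 0.325 on NIH3T3 1 mM 48 h replicate 1. The part of bioC level in the Hox values of these 6 arrays was not tested.

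Single times at 25 mM had 2 arrays a side. limma called 0 members at 0, 24 and 48 h, where 0.0110%, 0.0660% and 0.0165% of all genes were called. An unadjusted p under 0.05 was reached by 4, 7 and 6 members, against 851, 2780 and 1867 of the 18193 genes. Over the 20 comparisons on all arrays, 117 to 4487 of the 18193 genes had such a p. At 72 h limma called Hoxa2 alone, against 0.726% of all genes. Hoxa2 was at -1.46 and 0.09 on K-ras arrays at 72 h, against 2.66 and 2.95 on NIH3T3 arrays, a log2 fold change of -3.49 ± 0.77 (adjusted p = 0.0459). That call was lost after quantile normalisation, with the replicate number as a block and without either NIH3T3 array or replicate 1 of K-ras. Without the 6 arrays, which leaves 1 K-ras array at 0 h, the calls were 2, 5, 6 and 7 at 0, 24, 48 and 72 h, against 2.25%, 6.29%, 5.49% and 8.89% of all genes. In these fits Hoxb9 was lower in K-ras arrays at each of the 4 times, by -2.26 ± 0.37, -2.12 ± 0.31, -1.28 ± 0.31 and -1.62 ± 0.31 in order of time. Hoxa3 and Hoxb3 were called as lower at 24, 48 and 72 h, Hoxb6 at 24 and 72 h, Hoxa2 at 48 and 72 h, Hoxa10 and Hoxb5 at 48 h, and Hoxa5 and Hoxd3 at 72 h. Hoxd8 was called as higher in K-ras arrays at 0 h (1.04 ± 0.24) and at 24 h (0.98 ± 0.19).

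At 1 mM the lines could hardly be compared, since 5 of the 6 doubtful arrays belong there. limma called 0 members averaged over 24, 48 and 72 h, with 0 at an unadjusted p under 0.05, and 0% of all genes were called. At 1 mM and 72 h it called 0 members, against 0.253% of all genes, and 3 had an unadjusted p under 0.05, against 2295 of the 18193 genes. Hoxa3 was at 1.61 and -2.06 on the K-ras 1 mM 72 h arrays, against 1.95 and 0.57 on the NIH3T3 1 mM 72 h arrays. Without replicate 1 of K-ras 1 mM 72 h the K-ras side is 1 array, whose spread is taken from the other groups. In the fit without the 6 arrays, Hoxa3 (-3.32 ± 0.56, adjusted p = 0.00254) and Hoxa2 (-2.40 ± 0.51, adjusted p = 0.0111) were then called as lower, against 8.09% of all genes.

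In NIH3T3 at 25 mM the mRNA of Hoxa2, Hoxa5, Hoxd3, Hoxd8 and Hoxd9 rose from the medium change to 72 h. No member was called as lower, while the fold change was positive for 18 of the 33. Hoxa2 and Hoxd8 were also called between the lines, in a comparison that shares the 72 and 0 h arrays of NIH3T3. limma called 5 of 33 members, against 5.52% of all genes. All 5 were higher, 15.2% of the members against 3.68% of all genes, and 0 were lower, against 1.84% of all genes. Beside these 5, Hoxb13 (0.54) and Hoxa13 (-0.56) had an unadjusted p under 0.05, as had 3693 of the 18193 genes. The median log2 fold change was 0.09 over the members and -0.07 over all genes. The calls lay in clusters A (2 of 9) and D (3 of 8), with 0 of 9 in B and 0 of 7 in C. Only the 4 arrays at 72 and 0 h enter the fold change, and the calls depended on each of them: with 1 left out at a time 0 to 2 members were called, 0 without replicate 1 at 72 h, 1 without replicate 1 at 0 h, and 2 without replicate 2 at either time. Hoxa5 was called in 3 of these 4 fits, Hoxd3 in 2 and the others in 0, while the fold changes kept their sign. After quantile normalisation 3 were called.

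Hoxa2 was at 2.66 and 2.95 on NIH3T3 arrays at 72 h, against -0.21 and -0.05 at 0 h, a log2 fold change of 2.94 ± 0.77 (adjusted p = 0.0355). It was still at 0.15 and 0.00 at 24 h and had reached 2.55 and 1.37 at 48 h. Hoxa5, known for its role in the lung and the respiratory tract, was at 1.53 and 1.25 at 72 h, against -0.84 and -0.68 at 0 h. Its log2 fold change was 2.15 ± 0.34 (adjusted p = 0.00431), and its other probe set gave 0.62. Hoxd3, a gene of the first neck vertebrae, was at 1.63 and 0.73 at 72 h, against -1.18 and -0.56 at 0 h, a log2 fold change of 2.05 ± 0.35 (adjusted p = 0.00563). In each of these genes both arrays at 72 h lay above both at 0 h, as they did for 11 of the 33 members, against 27.1% of all genes, while 8 members lay wholly below, against 34.2%.

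Hoxd9, which acts in the upper limb, was at 0.39 and 0.31 at 72 h, against -1 and -0.58 at 0 h, a log2 fold change of 1.14 ± 0.27 (adjusted p = 0.0230). Hoxd8, its neighbour, was at 0.08 and -0.11 at 72 h, against -0.99 and -0.97 at 0 h, a log2 fold change of 0.96 ± 0.26 (adjusted p = 0.0415), and its other probe set gave 0.54. Some other probe sets of the same stretch of cluster D rose as well, in a limma fit of all probe sets. Both that the annotation shares between Hoxd4 and Hoxd3 rose, by 1.18 ± 0.30 (adjusted p = 0.0315) and 1.04 ± 0.28 (adjusted p = 0.0427). These may read the mRNA of Hoxd3 itself. One probe set of Hoxd3os1, a transcript antisense to Hoxd3, rose by 2.79 ± 0.60 (adjusted p = 0.0144), while its other probe set gave 0.26. The other measured members of cluster D, Hoxd1 and Hoxd10 to Hoxd13, were not called, with log2 fold changes from -0.39 to 0.09. Hoxa3 had a log2 fold change of 1.82 ± 1.11 that did not pass the test, and it was called without the 6 arrays (1.82 ± 0.46, adjusted p = 0.0237), which leaves the arrays compared as they are but narrows the shared spread. Of the other Hoxa3 probe sets, 1 passed the test over time on all arrays (0.95 ± 0.21, adjusted p = 0.0178), and the rest gave 0.52 and -0.13. The fit without the 6 arrays called 6 members higher, against 6.94% of all genes, and 0 lower, against 3.71%.

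The promoters of the 5 members that rose are shown so that the clusters can be compared at the sequence level. Over the 8 NIH3T3 arrays at 25 mM, pairs of these members correlated at 0.846 to 0.965, but they were picked by their rise on these arrays. On the 7 K-ras arrays at 25 mM in place, the pairs ran from -0.174 to 0.773 (median 0.519). Each promoter is 300 bases from RefSeq on build GRCm38.p6, 250 before the start site and 50 after it, read 5′ to 3′ on the strand of the gene. Capitals mark matches, on either strand, to CCAAT (the NF-Y box), AGGTCA (the core site of nuclear receptors, retinoic acid receptors included) and TGATNNAT (a joint PBX and HOX site). CACGTG and TATAAA were searched as well. Hoxa2 lies at chr6:52164782-52165081, minus strand, Hoxa5 at chr6:52204538-52204837, minus strand, Hoxd3 at chr2:74711743-74712042, plus strand, Hoxd8 at chr2:74704365-74704664, plus strand, and Hoxd9 at chr2:74697513-74697812, plus strand.
Hoxa2: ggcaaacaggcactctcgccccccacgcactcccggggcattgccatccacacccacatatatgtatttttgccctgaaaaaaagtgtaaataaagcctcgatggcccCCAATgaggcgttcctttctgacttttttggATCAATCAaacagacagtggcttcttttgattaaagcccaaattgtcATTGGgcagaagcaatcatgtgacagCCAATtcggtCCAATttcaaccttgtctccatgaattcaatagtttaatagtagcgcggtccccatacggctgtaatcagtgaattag
Hoxa5: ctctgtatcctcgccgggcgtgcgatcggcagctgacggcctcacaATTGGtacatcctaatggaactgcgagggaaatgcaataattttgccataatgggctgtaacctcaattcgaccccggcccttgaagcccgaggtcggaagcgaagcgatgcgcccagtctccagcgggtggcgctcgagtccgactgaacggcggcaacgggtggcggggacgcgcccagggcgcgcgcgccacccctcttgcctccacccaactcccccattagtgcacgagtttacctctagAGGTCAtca
Hoxd3: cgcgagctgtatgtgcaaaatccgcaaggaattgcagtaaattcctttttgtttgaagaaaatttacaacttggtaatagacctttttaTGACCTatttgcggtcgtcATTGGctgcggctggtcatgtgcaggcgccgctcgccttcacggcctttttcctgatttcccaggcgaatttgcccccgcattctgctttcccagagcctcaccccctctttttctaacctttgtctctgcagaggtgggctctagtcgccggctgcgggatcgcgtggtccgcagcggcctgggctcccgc
Hoxd8: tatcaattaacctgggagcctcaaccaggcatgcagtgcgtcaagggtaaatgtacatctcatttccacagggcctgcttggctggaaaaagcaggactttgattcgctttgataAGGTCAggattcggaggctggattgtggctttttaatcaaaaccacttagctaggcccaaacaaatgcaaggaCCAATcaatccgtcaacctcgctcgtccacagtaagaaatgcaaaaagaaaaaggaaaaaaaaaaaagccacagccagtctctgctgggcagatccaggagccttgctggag
Hoxd9: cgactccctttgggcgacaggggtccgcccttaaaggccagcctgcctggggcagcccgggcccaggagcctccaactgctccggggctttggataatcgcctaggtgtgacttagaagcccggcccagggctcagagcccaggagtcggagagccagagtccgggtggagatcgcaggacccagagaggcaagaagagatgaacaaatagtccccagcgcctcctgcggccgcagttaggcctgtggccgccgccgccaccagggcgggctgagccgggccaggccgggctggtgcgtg
CCAAT or its reverse complement was found in 4 of these 5 promoters, with 4 matches in Hoxa2, against 12 of the 19 members with a promoter at hand and 37.4% of 32851 promoters of the same length. AGGTCA was found in 6 of the 19, in Hoxa5, Hoxd3 and Hoxd8 and in Hoxb4, Hoxc4 and Hoxd10, which were not called over time, against 16.3% of all promoters. TGATNNAT was found in 3 of the 19, in Hoxa2 and in Hoxb1 and Hoxd11, which were not called over time, against 8.85% of all promoters. Hoxd9, which also rose, held no match to any of the 5 motifs. A link between these motifs and the rise was not tested. No match overlapped another in these promoters, and a match is a run of letters, not a bound site.

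In K-ras cells at 25 mM none of these genes passed the test over time. Hoxa2 was at -1.46 and 0.09 on K-ras arrays at 72 h, against 0.23 and -0.61 at 0 h. Hoxa5 was at -0.25 and 0.17 at 72 h, against 0.36 and -0.43 at 0 h, and Hoxd3 at -0.06 and 0.13, against -0.23 and -0.25. Hoxd8 was at 0.34 and 0.42 at 72 h, against -0.63 and 0.06 at 0 h, and Hoxd9 at 0.34 and 0.34, against -0.56 and -0.01. Hoxd8 and Hoxd9 thus stood higher at 72 h in K-ras too, without passing the test. The lower 0 h value of each was that of the doubtful replicate 1. limma called 0 members for 72 h minus 0 h in K-ras, with 6 at an unadjusted p under 0.05, against 2791 of the 18193 genes. It also called 0 for 72 h minus 24 h, which avoids the doubtful array at 0 h. There 2 members had an unadjusted p under 0.05, against 1849 of the 18193 genes. No gene of the table was called in these K-ras comparisons, 0% of all genes, and without the 6 arrays they still had 0 calls among members, against 0.0330% and 0.0385% of all genes, with 1 at an unadjusted p under 0.05 in each. The difference between the lines in the change from 24 to 72 h was tested directly and called 0 members, against 0.00550% of all genes. An unadjusted p under 0.05 was reached by 2 members, against 2664 of the 18193 genes. The 2 members were Hoxa2, at -3.21 ± 1.09 (adjusted p = 0.255), and Hoxa5, at -1.37 ± 0.48 (adjusted p = 0.257). Without the 6 arrays this test again called 0 members, against 0.0879% of all genes, with a lowest adjusted p of 0.0536. In that fit 4 members had an unadjusted p under 0.05, against 2935 of the 18193 genes. A rise confined to NIH3T3 was thus not shown.

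**Figure D3:**
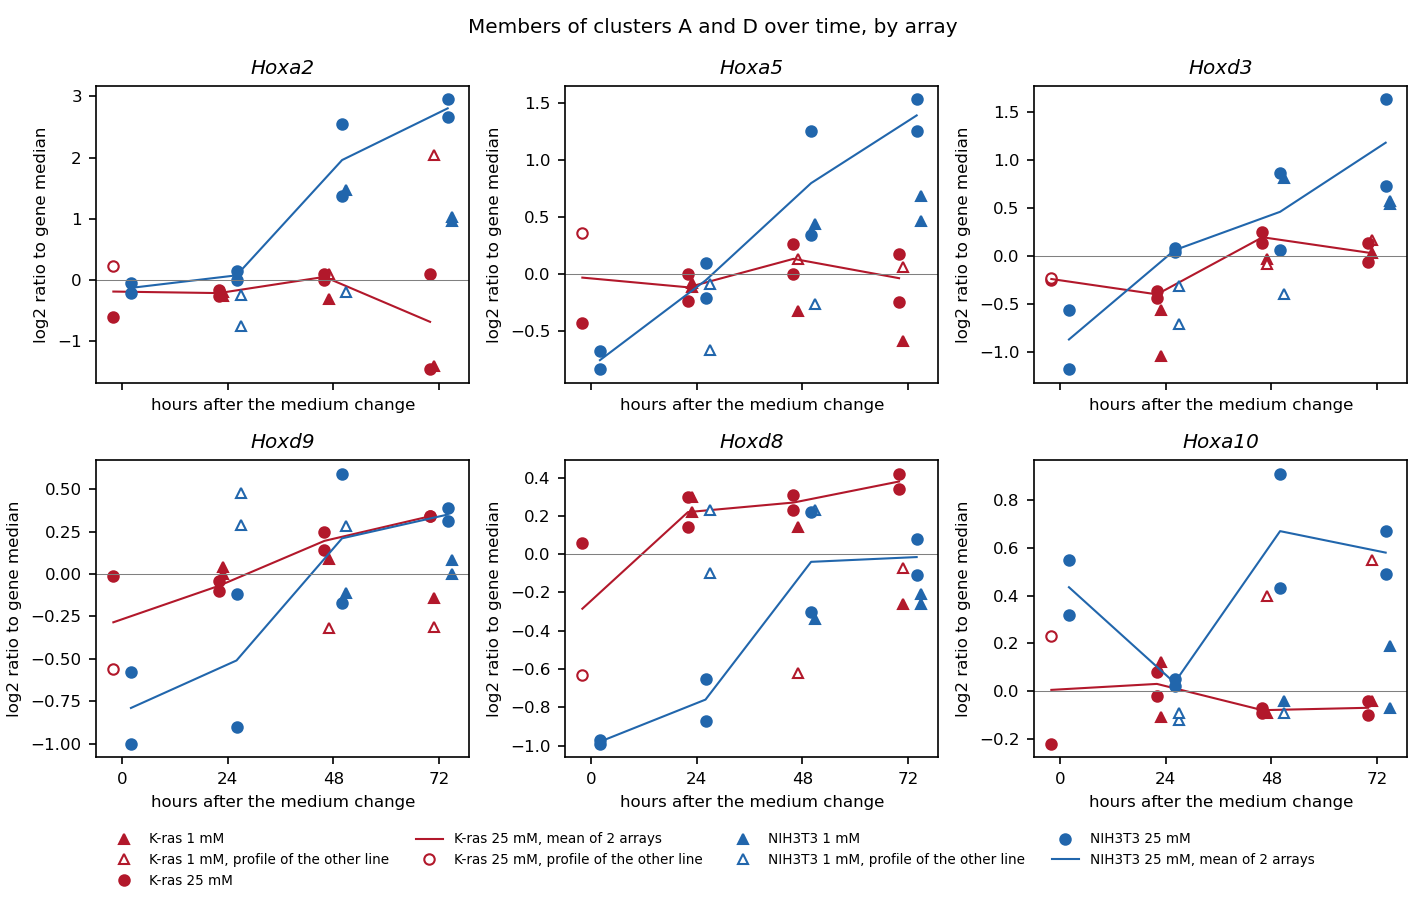
Log2 ratio on each array against hours after the medium change for the 5 members that rose in NIH3T3 at 25 mM and for Hoxa10, K-ras in red drawn left of NIH3T3 in blue, triangles for 1 mM and circles for 25 mM, open symbols for arrays with the profile of the other line. NIH3T3 arrays at 25 mM climb from 24 h on in Hoxa2, to 2.66 and 2.95 at 72 h, where K-ras arrays at 25 mM stand at -1.46 and 0.09.

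**Figure D4:**
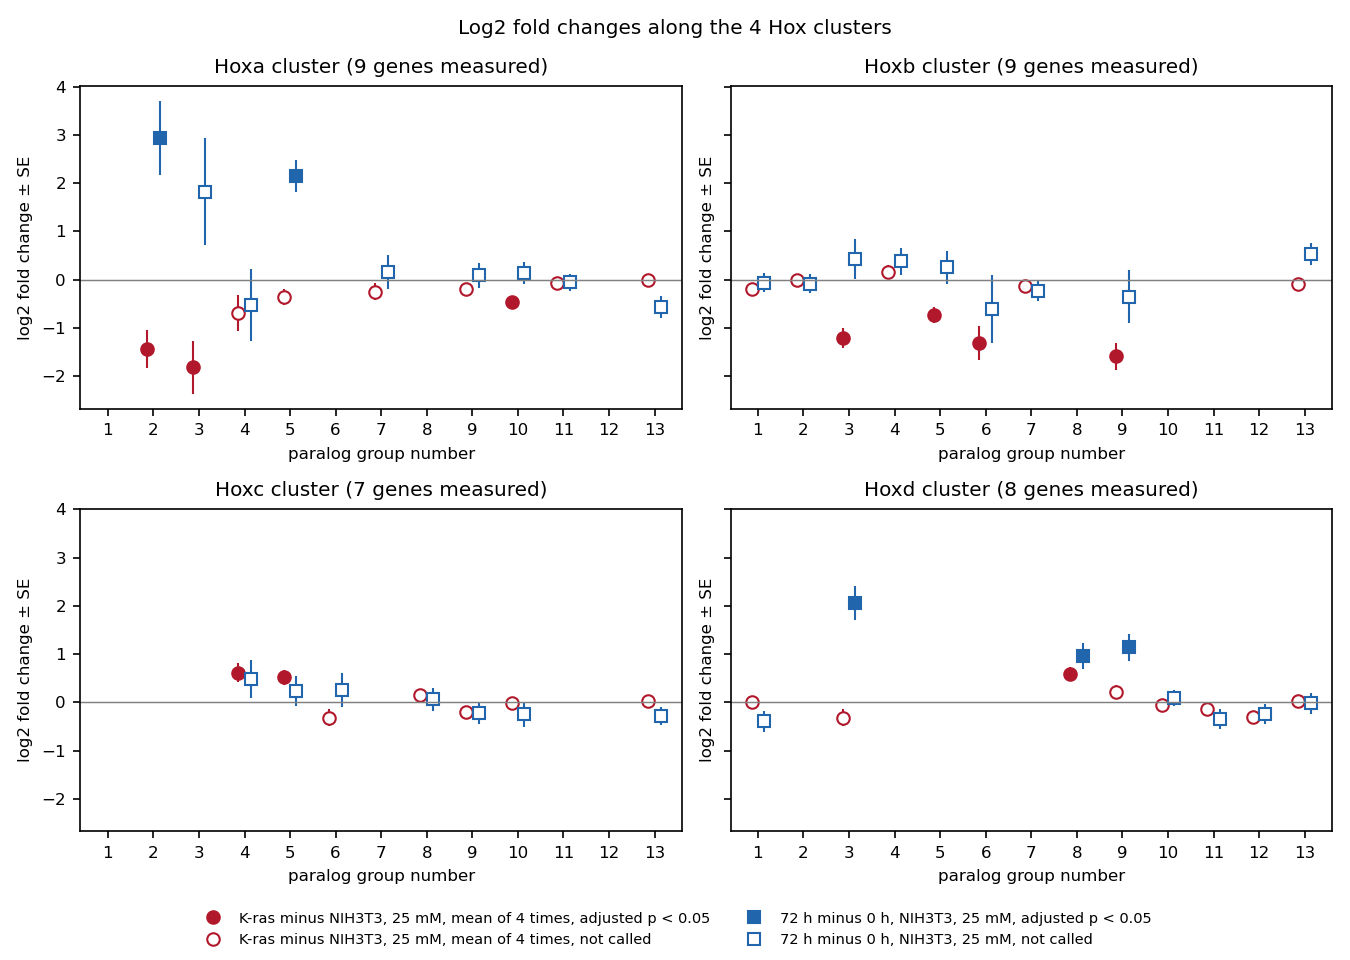
Log2 fold change ± SE of each member by paralog group number, in 1 panel per cluster, for K-ras minus NIH3T3 at 25 mM averaged over 4 times (red circles) and for 72 h minus 0 h in NIH3T3 at 25 mM (blue squares). Filled symbols passed an adjusted p under 0.05: 3 in A, 4 in B, 2 in C and 1 in D for the lines, and 2 in A and 3 in D for time.

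Glucose moved no member past the threshold. Averaged over both lines and 24, 48 and 72 h, 1 mM minus 25 mM had 0 calls by limma among the 33 members and 0% among all genes. The 3 members with an unadjusted p under 0.05 were Hoxa5 (-0.38 ± 0.14), Hoxd3 (-0.34 ± 0.14) and Hoxa13 (0.20 ± 0.09), none with an adjusted p under 0.959. Of the 18193 genes 917 had such an unadjusted p. Within NIH3T3 there were 0 calls at 24, 48 and 72 h, against 0.00550%, 0% and 0.0110% of all genes. There 10, 1 and 4 members had an unadjusted p under 0.05, against 2933, 248 and 1224 of the 18193 genes. The 10 members at 24 h rest on the 2 doubtful 1 mM arrays, so glucose and line profile cannot be told apart there. Within K-ras there were 0 calls at 24, 48 and 72 h, against 0%, 0% and 0.181% of all genes. In K-ras 0, 0 and 3 members had an unadjusted p under 0.05, against 117, 759 and 2791 of the 18193 genes.

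The members that rose with time in NIH3T3 were lower at 1 mM than at 25 mM at 72 h without passing the test. These members were picked by their high values on the same NIH3T3 25 mM arrays at 72 h. A lower value at 1 mM is therefore favoured by that choice, and no effect of glucose on the rise can be read from it. Hoxa2 was at 1.03 and 0.96 on NIH3T3 1 mM arrays at 72 h, against 2.66 and 2.95 on NIH3T3 25 mM arrays, a log2 fold change of -1.82 ± 0.77 (adjusted p = 0.678). Hoxa5 was at 0.68 and 0.46 at 1 mM, against 1.53 and 1.25 at 25 mM, a log2 fold change of -0.82 ± 0.34 (adjusted p = 0.678). Hoxb3, which was not called over time, was at 0.39 and 0.06 at 1 mM, against 1.75 and 0.78 at 25 mM, with -1.05 ± 0.41 (adjusted p = 0.671). Without the 6 arrays the NIH3T3 comparison at 72 h still had 0 calls among members, against 0.0440% of all genes. In that fit 7 members had an unadjusted p under 0.05, against 1558 of the 18193 genes. In Hoxa2, Hoxa5 and Hoxb3 both 1 mM arrays lay below both 25 mM arrays, and all 4 arrays had the profile of their own line. The share of all genes that did so is not given here. Such separation of 2 against 2 arrays is common: between 72 and 0 h in NIH3T3 at 25 mM, 27.1% of all genes lay wholly above and 34.2% wholly below. In K-ras at 72 h, Hoxb4, known for the expansion of blood stem cells, was at 0.06 and -0.92 at 1 mM, against 0.52 and 0.54 at 25 mM. Its log2 fold change was -0.96 ± 0.28 (adjusted p = 0.136), and without the 6 arrays, with 1 array left at 1 mM, it was -1.45 ± 0.28 (adjusted p = 0.0127) and the single call, against 3.74% of all genes. The difference between the lines in the glucose change at 72 h called 0 members and 0% of all genes, with 3 at an unadjusted p under 0.05, and without the 6 arrays 0 members and 0.704% of all genes, with 2.

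Genes that act with or on the clusters were set beside the members, in lists chosen with earlier results of these data known. Among 8 measured Hox cofactors limma called 0 between the lines at 25 mM, with 2 at an unadjusted p under 0.05, and without the 6 arrays 1 higher (Pbx2) and 1 lower (Pbx4). On all arrays 4487 of the 18193 genes had an unadjusted p under 0.05 between the lines. With time in NIH3T3, limma called Meis1 (2.24, adjusted p = 0.00642) and Pbx2 (1.35, adjusted p = 0.0144) as higher. They were named, like all genes of these lists given for time, after their values were seen. As the background of all these lists, 11.3% of all genes were called between the lines (17.9% without the 6 arrays) and 5.52% over time in NIH3T3 (10.7%). Among 23 Polycomb genes 1 was higher and 3 were lower in K-ras arrays: Rnf2, a ubiquitin ligase of the complex PRC1 (1.14 ± 0.24), and Pcgf5 (-1.03 ± 0.19), Ezh1, a histone methyltransferase (-0.83 ± 0.20), and Phf19 (-0.64 ± 0.19). Other probe sets ran from -0.15 to 1.11 in Rnf2, from -0.78 to -0.05 in Pcgf5 and from -0.37 to -0.03 in Ezh1, and the other one of Phf19 gave 0.0053. The fit without the 6 arrays called 2 Polycomb genes higher and 4 lower, with Bmi1 and Cbx8 added. With time in NIH3T3, Ezh1 (2.07), Phf1 (1.93), Jarid2 (1.62) and Phc1 (1.14) rose and Phc2 (-1.44) fell, 5 of 23, and without the 6 arrays 5 rose and 1 fell. Among 10 trithorax genes and histone demethylases limma called 0 between the lines, with 1 at an unadjusted p under 0.05, and without the 6 arrays 1 higher (Kdm6a). With time in NIH3T3 Kmt2b (0.86) rose and Wdr5 (-1.17) fell, and without the 6 arrays 2 rose and 1 fell.

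Of 19 measured regulators upstream of the clusters, 2 were higher and 2 were lower in K-ras arrays, and these 4 belong to the retinoic acid pathway, as do most entries of that list. Crabp1, a retinoic acid binding protein, had log2 ratios from -5.45 to 3.85 on K-ras arrays at 25 mM, against -6.25 to -5.57 on NIH3T3 arrays, a log2 fold change of 7.71 ± 1.39. Aldh1a1, which makes retinoic acid, ran from -3.59 to 0.96 on K-ras arrays, against 0.90 to 2.30 on NIH3T3 arrays. Its log2 fold change was -4.38 ± 0.81. These K-ras ranges include the doubtful replicate 1 at 0 h. Without the 6 arrays the log2 fold change was 8.72 for Crabp1 and -4.89 for Aldh1a1. Cyp26b1, which degrades retinoic acid, stood at -1.62 ± 0.37 and the receptor gene Rarg at 0.71 ± 0.18. Of 45 measured transcription factors of other positional families, 2 were higher and 3 were lower in K-ras arrays. Tbx3, a limb and breast factor (1.95 ± 0.40), and Twist1, a mesenchyme factor (0.55 ± 0.14), were higher. Pax3, a neural crest and muscle factor (-2.35 ± 0.52), Foxf1 (-1.67 ± 0.38) and Irx3 (-0.92 ± 0.22) were lower. Other probe sets gave -0.08 at the low end for Tbx3 and -0.17 for Foxf1. The count of 5 of 45 stands beside 11.3% of all genes called in this comparison. The upstream regulators had the same counts without the 6 arrays, and 4 of the other positional factors were higher and 5 lower, against 17.9% of all genes. With time in NIH3T3 Cyp26b1 (2.57) was the single upstream regulator called and Pitx1 (-0.785) the single positional factor.

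Markers of other cell types moved in part with the lines, and their part in the Hox differences was not tested. Of 10 epithelial markers 3 were lower in K-ras arrays (Krt14, Cdh1 and Epcam), and of 7 skeletal muscle markers 2 were lower (Acta1 and Des). Of 7 leukocyte markers only Cd68 was higher (1.00 ± 0.20), of 7 endothelial markers only Tie1 (0.70 ± 0.21), and of 4 fat markers Fabp4 was higher and Lpl lower. Of 7 neural markers Map2 was higher, and Tubb3 and Nes were lower. Other probe sets ran from 0.0069 to 0.20 in Map2, from -0.17 to 1.05 in Fabp4, from -4.78 to -0.17 in Krt14 and from -0.31 to -0.0092 in Nes. Those of Epcam, Des and Lpl gave 0.07, -0.02 and -2.33. All these marker counts stand beside 11.3% of all genes called between the lines. These counts were the same without the 6 arrays, except that 1 epithelial marker, Krt8, was then higher. The clusters' flanks were looked at after the data were seen. Of the 24 nearest measured protein-coding genes, 3 on each side of each cluster, 3 differed between the lines: Snx10 beside cluster A (-1.75 ± 0.29), and Mtx2 (0.31 ± 0.09) and Nfe2l2 (1.02 ± 0.22) beside cluster D, against 11.3% of all genes. Again 3 were called without the 6 arrays, Snx10, Nfe2l2 and Atp5g2, the last beside cluster C, against 17.9%. With time in NIH3T3, Snx11 beside cluster B was called, at -1.29 ± 0.36 (adjusted p = 0.0421), the single flanking gene called, against 5.52% of all genes, while its Hox neighbours were not. Over time 3 were called without the 6 arrays (Snx10, Snx11 and Calcoco1), against 10.7%.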

How the data were processed

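RNA of 28 cultures was hybridised to Affymetrix mouse arrays, 1 array per culture, after Trizol and RNeasy extraction and one-cycle biotin labelling, per the labels' protocols. The deposited values are on a log2 scale, for 45101 probe sets. RMA is named per the submitters' processing notes, with no version or step. Tested on the file, the linear median of each of the 45101 probe sets was 1 within 0.001, so each deposited log2 value is relative to that probe set's median and holds no absolute level. Whether replicates came from separate cultures is given only by the word biological in the labels.

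Symbols came from the platform annotation (34945 probe sets with 1 symbol), and 1 probe set per gene, that of largest SD, left 18193 genes. limma 3.58.1 in R 4.3.3 was fitted with 1 coefficient per group on all 28 arrays (14 residual degrees of freedom), over 20 comparisons, with Benjamini-Hochberg adjustment over all genes and a threshold of 0.05. Errors are standard errors. The fit was tested on simulated data. Fits of other probe sets and shared probe sets ran over all single-symbol probe sets and the Hox-related ones together. The members, lists, comparisons and the 6 doubtful arrays were chosen with earlier results of these data known. Values are given for members called in the averaged line comparison, the 3 largest differences each way, up to 4 called members of any other comparison, and up to 4 called genes of each list. Alternatives were quantile normalisation, a replicate block, only the arrays compared, the mean of a gene's probe sets, a filter on low SD, leaving out the 6 arrays, and each array left out in turn. A block for bioC, cut at -0.6, was chosen after seeing the data. Promoters were searched with Python 3.11.15 and figures drawn with matplotlib 3.10.9.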

Additional observations from a re-analysis of the deposited data

Results flagged for a closer look

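In 3 comparisons between the lines, both arrays of each line moved away from their own starting group in opposite directions, although the test of the difference did not pass. Hoxb3 at 1 mM minus 25 mM and 72 h changed by 0.66 in K-ras arrays and by -1.05 in NIH3T3 arrays, a difference of 1.71 ± 0.58 (adjusted p = 0.266, limma), and 1 of the K-ras 1 mM arrays had the profile of NIH3T3. Hoxd12 in the same comparison changed by 0.10 in K-ras arrays and by -0.43 in NIH3T3 arrays, a difference of 0.53 ± 0.30 (adjusted p = 0.481, limma). Hoxa10 from 24 to 72 h at 25 mM changed by -0.10 in K-ras arrays and by 0.55 in NIH3T3 arrays, a difference of -0.64 ± 0.31 (adjusted p = 0.355, limma).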

How the results depend on the processing

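For the line difference averaged over times at 25 mM, 8 to 11 members were called under quantile normalisation (8), the replicate block (9), only the arrays compared (10), the mean of probe sets (10), the filter on low SD (9, with 15 members tested) and without the 6 arrays (11), 0 with the bioC block, and 4 to 10 with 1 array left out. The bioC block called 0 of all genes, and since the lines at 25 mM lie on opposite sides of its cut, it cannot separate line from bioC level. On all arrays 11.3% of all genes were called for the average over times. At 25 mM and 72 h the share was 0.726%, against 8.89% without the 6 arrays. Shares of all genes are not given for the other alternatives, so whether a changed count is particular to the Hox genes was not tested. At 25 mM and 72 h, where 1 member was called, the counts were 0 under quantile normalisation, the replicate block and the bioC block, 2 with only the arrays compared or the mean of probe sets, 3 with the filter on low SD, 7 without the 6 arrays and 0 to 7 with 1 array left out. Without the 6 arrays the calls became 2, 5 and 6 at 0, 24 and 48 h, 2 at 1 mM and 72 h and 1 for glucose in K-ras at 72 h, and with only the arrays compared 3 at 24 h. For 72 h minus 0 h in NIH3T3, 3 members were called after quantile normalisation and 0 to 2 with 1 array left out. With 1 array left out, 0 to 3 members were called for glucose in K-ras at 72 h, 0 to 2 for K-ras 72 h minus 0 h and minus 24 h, 0 to 3 for the time difference between lines and 0 to 1 for the glucose difference between lines. Direction turned in Hoxb3 for 72 h minus 0 h in NIH3T3 without replicate 1 at 72 h (-0.055, range -0.055 to 0.91 with 1 array left out), and with the bioC block in the line difference of Hoxc5 (-0.11) and Hoxd3 (0.28). The cause of these changes was not tested. Replicate numbers did not pair the arrays: over 79 pairs of groups the correlation of same-numbered deviations ran from -0.683 to 0.457 (median -0.0373), and 20 pairs were over 0.1. The replicate block left 24 of 26 named values on the same side of the threshold. The line average at 1 mM and the glucose comparisons with NIH3T3 at 24 h could not be computed without the 6 arrays.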
